A study of Mus musculus with 2 samples.

Results

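The nicotinic receptor cluster of *Chrnb4*, *Chrna3* and *Chrna5* was described in single retinal cells sorted by the GFP reporter that the *Chrnb4* promoter drives, which labels cones. Its 3 members were taken by symbol from the 17774 genes with a row in the counts, and all 3 passed the filter that left 15947 genes. The cells came from retinae of *Pde6c*.GFP mice on the C57BL/6 strain, in which the *Pde6c* cpfl1 mutation, a loss of the cone phosphodiesterase that leads to cone degeneration, is combined with the Chrnb4.eGFP transgene. Both groups carried the mutation and the transgene, so neither holds healthy cones. One library came from uninjected retinae at P24. The other came from retinae given a single intravitreal injection of 10 µM GSK-J4, an inhibitor of the Jumonji H3K27 demethylases, at P14 and collected at P24. The injection held DMSO and saline as vehicle. The GFP signal reports the transgene's promoter and not the endogenous *Chrnb4* RNA, and cells without GFP were not sorted. The reporter's own transcript was not analysed here, and whether the transgene holds exon sequence of *Chrnb4* is not given in the sources used here, so reads from the transgene and from the endogenous gene cannot be told apart. There was 1 library and 1 plate per condition. No sham-injected library is in the series. Effects of the plate, the injection and the vehicle therefore cannot be told apart from one of GSK-J4. Every difference given below lacks a replicate check and a P-value.

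Nicotinic acetylcholine receptors are cation channels built from subunits around a central pore and opened by acetylcholine. The *Chrna3* product carries a face of the agonist site and pairs with the *Chrnb4* product, a beta subunit, in the receptor known best from autonomic ganglia. The *Chrna5* product is an accessory subunit that joins such receptors and does not form a working channel alone. In the retina acetylcholine is released by starburst amacrine cells of the inner layers, and its receptors are best known from inner retinal neurons, although the Chrnb4.eGFP line labels cones.

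In GRCm38 (GENCODE vM21) the cluster spans 67.9 kb of chromosome 9. *Chrna5* (ENSMUSG00000035594) lies on the forward strand from 54980880 to 55007779. *Chrna3* (ENSMUSG00000032303) lies on the reverse strand from 55010111 to 55026562, so that the ends of these genes face each other across 2331 bases. *Chrnb4* (ENSMUSG00000035200), also on the reverse strand, lies from 55028154 to 55048779 and begins 1591 bases beyond *Chrna3*. The 3 genes share no exon bases with one another. The antisense gene *Gm47877* lies within *Chrnb4* on the other strand from 55030783 to 55039429 and shares 0 of its exon bases. Its counts were 7 in the uninjected library and 5 in the treated one, against 403 and 36 of *Chrnb4*. Whether reads were counted by strand is not given in the sources used here.

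The start regions of the 3 genes are shown because the sort depends on the first of them and because the windows taken differ in the boxes they hold. They are taken from RefSeq (GRCm38.p6), are written 5′ to 3′ on the strand of each gene, and carry in capitals each match on either strand to GGGCGG, known to be bound by Sp family factors and called the GC box below, or to CCACCC, which is called the CACCC box below. RefSeq places the *Chrnb4* start 235 bases inside the first exon of GENCODE vM21, so only the outermost 30 bases of its window are given, 15 of them before the GENCODE start, at chr9:55048765-55048794. *Chrna3* is shown at chr9:55026563-55026812 and the inner of the *Chrna5* starts at chr9:54981248-54981465.
Chrnb4: gacgaatgagacaagagctagtCCACCCtc
Chrna3: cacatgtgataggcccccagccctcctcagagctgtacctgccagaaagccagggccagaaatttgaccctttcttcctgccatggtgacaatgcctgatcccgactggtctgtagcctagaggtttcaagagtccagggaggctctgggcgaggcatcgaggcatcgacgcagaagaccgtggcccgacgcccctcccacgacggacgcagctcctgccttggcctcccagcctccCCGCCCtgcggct
Chrna5: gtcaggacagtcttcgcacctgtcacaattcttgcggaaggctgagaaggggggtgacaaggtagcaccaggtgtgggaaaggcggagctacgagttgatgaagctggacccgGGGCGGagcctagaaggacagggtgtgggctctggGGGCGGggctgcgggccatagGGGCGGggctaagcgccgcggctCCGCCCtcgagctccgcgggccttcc
The *Chrnb4* window of 250 bases before the RefSeq start held 2 CACCC boxes, one on each strand, at -228 to -223 (shown) and -94 to -89, and no GC box. By the GENCODE start both boxes lie within the first exon, and only 15 bases of this window lie before that start. The lack of a GC box therefore says little about the sequence upstream of the GENCODE start. The *Chrna3* window held 1 GC box at -13 to -8 and no CACCC box. The inner *Chrna5* window held 4 GC boxes between -127 and -43, and its outer window held neither motif. Among all 32851 RefSeq windows of this length, 32.7% held a GC box and 28.1% a CACCC box, so that either motif is common. A match describes the letters only.

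The filter of the methods kept 82 uninjected and 64 GSK-J4-treated cells, which shared no cell name, and the depth per cell was a median of 8118 counts (860 to 98250) in the first and 2335.5 (420 to 15371) in the second. Against 11 cone marker genes, every uninjected cell held cone transcripts, with 0.358 to 9.81% of counts on these genes. Some held more counts of another list. On 8 Müller glia markers, uninjected wells H04, B12 and C08 had 493, 148 and 117 counts, beside 51, 54 and 28 on cone markers. On 8 rod markers, wells G02 and D01 had 310 and 78, beside 285 and 67. Each of these wells had 1 or 2 *Chrnb4* counts. Whether they held other or mixed cells was not tested. In GSK-J4-treated cells the share ran from 0 to 6.74% with a median of 0%. Of the 11 markers, 5 were at 0, *Opn1sw*, *Gngt2*, *Guca1a*, *Cngb3* and *Pde6c*. *Opn1mw* had 304 counts, *Pde6h* 92 and *Arr3* 39, of which 303, 88 and 37 came from the highest cell of each. *Gnat2* and *Gnb3* had 1 count each. *Cnga3* had 8, beside 27 in uninjected cells, or 0.384 and 0.242 per 10000 by library totals, with overlapping intervals. The GSK-J4-treated library is therefore named here by its label, and its values are not read as those of verified cones.

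*Chrnb4* was the member seen most, in most uninjected cells and in a minority of GSK-J4-treated cells. Of 82 uninjected cells, 30 had no count of it, 25 had 1 count, 11 had 2 and 16 had 3 or more. The lowest was 0, the median among cells with a count was 2, and the highest were 100, 70 and 68. Of 64 GSK-J4-treated cells, 51 had no count, 11 had 1, and the other two had 5 and 20. All GSK-J4-treated cells lay within the range of the uninjected cells, and by raw counts 5 uninjected cells lay above the highest GSK-J4-treated cell. Raw counts follow the depth of the cell, which was lower in the treated library. Scaled to the depth of each cell, that treated cell stood at 75.7 per 10000, above the highest uninjected cell at 34.8. Together this gave 403 counts (95% exact Poisson interval 365 to 444) for the uninjected library and 36 (25.2 to 49.8) for the treated one. By summed counts *Chrnb4* ranked 355 of the 15947 genes among uninjected cells and 689 among those treated with GSK-J4. Of the 5 cells that the filter removed, 3 had 1 count of it each.

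Scaled to the library totals, *Chrnb4* stood at 3.62 counts per 10000 (3.27 to 3.99) without GSK-J4 and at 1.73 (1.21 to 2.39) with it. The ratio of these levels, treated over uninjected, was 0.477 with a counting interval of 0.329 to 0.671. Intervals here cover counting error only, and not the spread between cells, plates or animals. The log-fold was taken as in Seurat v.2, as the natural log of the mean scaled count plus 1, and was -0.29 (treated minus uninjected), from means over cells of 2.84 and 1.86 per 10000. It fell just short of the limit of 0.3 that the methods set for a changed gene, beside a P-value limit and after batch correction. Its interval of -0.52 to -0.059 was moved onto it from the ratio of the library sums. The treated mean weights cells equally, 1 of them at 75.7 per 10000, so this interval is not the counting error of the mean. The log-fold was -0.098 without the shallowest cells, as given below. Of all filtered genes, 24.4% lay beyond this limit, 11.8% in the lower and 12.6% in the higher direction. Among the 7682 genes that 10% or more of the cells of one library held, 44.4% lay beyond it, 24% lower and 20.4% higher, and 24.3% had a lower log-fold than *Chrnb4*.

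*Chrna3*, whose product carries a face of the agonist site, was sparse in uninjected cells and absent from the counts of the treated library. A count was found in 10 of 82 uninjected cells, 8 of them with 1 count and the others with 3 and 12. The remaining 72 uninjected cells and all 64 GSK-J4-treated cells were at 0. The sums were 23 (14.6 to 34.5) and 0 (up to 3.69) counts, or 0.207 per 10000 (0.131 to 0.310) and 0. At the uninjected level the shallower library would have held 4.31 counts. With the treated library set to the floor of 3 counts, *Chrna3* was 1.44-fold lower, and the interval of the ratio reached 0.929. The log-fold was -0.16.

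*Chrna5*, the accessory subunit, was found in fewer cells still. Of 82 uninjected cells, 4 had 1 count and another had 16, and the 64 GSK-J4-treated cells had none. The sums were 20 (12.2 to 30.9) and 0 (up to 3.69) counts, or 0.180 per 10000 (0.110 to 0.277) and 0, where 3.75 counts would have stood at the uninjected level. Against the floor it was 1.25-fold lower, the interval of the ratio reached 1.08, and the log-fold was -0.087. A difference in *Chrna5* was thus not detectable at this depth. None of the 3 members lay beyond 0.3 log-fold on its own, with a median of -0.16 beside 0.033 for all filtered genes. For *Chrna3* and *Chrna5* this was fixed in advance. Their uninjected means were 0.169 and 0.0911 per 10000, and 1 is added to each mean. Full absence from the treated library therefore gives no log-fold lower than the -0.16 and -0.087 found. The members summed to 1 value had a log-fold of -0.36, mostly from *Chrnb4*.

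**Figure D1:**
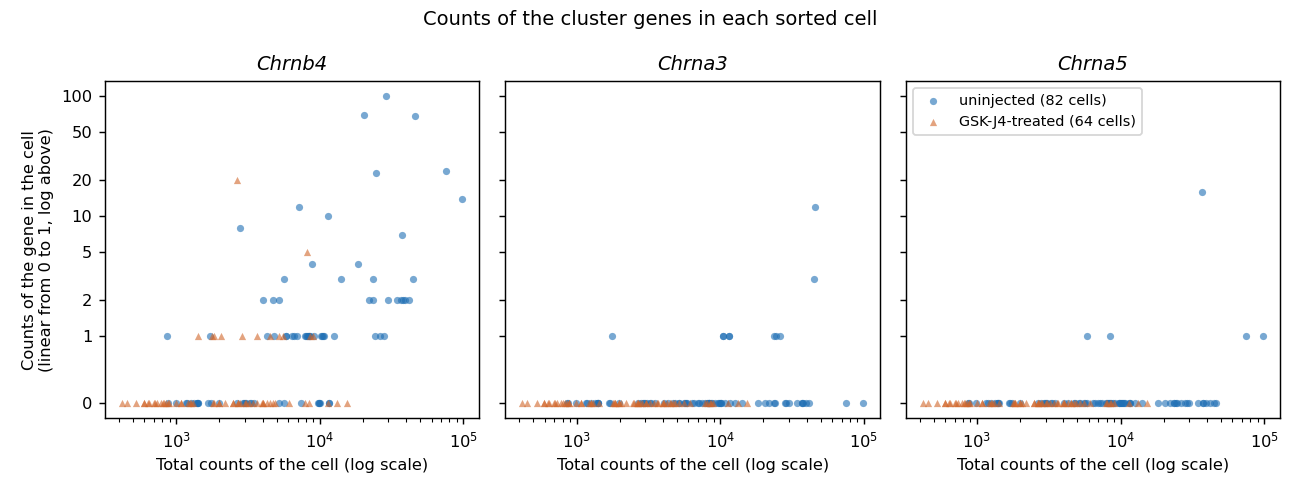
Counts of *Chrnb4*, *Chrna3* and *Chrna5* in each cell (vertical axis, linear from 0 to 1 and log above) against the total counts of that cell (horizontal log axis), for 82 uninjected (circles) and 64 GSK-J4-treated cells (triangles). The highest *Chrnb4* counts, 100, 70 and 68, were in uninjected cells, the highest GSK-J4-treated cell had 20, and *Chrna3* and *Chrna5* counts were found in uninjected cells alone.

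The order of the members was set by *Chrnb4*. In uninjected cells it had 403 of the 446 counts of the cluster. Per kb of exon, the levels in uninjected cells were 0.972 per 10000 for *Chrnb4* (3723 exon bases), 0.0575 for *Chrna5* (3126 bases) and 0.0392 for *Chrna3* (5265 bases). The intervals of *Chrna3* and *Chrna5* overlapped before scaling to length, and their order turned with it, so neither stood above the other. Because the libraries count the ends of transcripts, scaling to length may not apply to these counts in full. In GSK-J4-treated cells *Chrnb4*, at 0.464 per 10000 and kb, was the only member with a count.

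Few cells carried most of the counts. The 3 uninjected cells with the most *Chrnb4* held 238 of the 403 counts (59.1%), and without them the level was 1.62 per 10000 in place of 3.62. Over the 273 genes found in 47 to 57 uninjected cells, a range around the 52 of *Chrnb4*, the share of the 3 highest cells had a median of 44.4% and a 5th to 95th percentile range of 26.7 to 73.0%, so that *Chrnb4* lay inside it. In GSK-J4-treated cells a single cell held 20 of the 36 *Chrnb4* counts (55.6%), and the level without it was 0.777 per 10000 (0.444 to 1.26). This cell had 2643 counts in total and no count of any cone marker. For the 135 genes found in 13 GSK-J4-treated cells, as *Chrnb4* was, the highest cell held a median of 25.0% and a 95th percentile of 51.7%. These genes had a median of 20 counts against 36 of *Chrnb4*. Fewer counts over as many cells cap the share lower, so this comparison does not set *Chrnb4* apart. With the highest *Chrnb4* cell of each library left out, the *Chrnb4* log-fold was -0.71.

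The same was seen for the alpha subunits. One uninjected cell held 12 of the 23 *Chrna3* counts (52.2%), and one other held 16 of the 20 *Chrna5* counts (80.0%). Genes found in 5 uninjected cells, 1130 in all, had a 95th percentile of 61.1% for this share, below the value of *Chrna5*. These genes had a median of 7 counts against 20 of *Chrna5*. Fewer counts over as many cells cap the share lower, so this comparison does not set *Chrna5* apart. With the highest cell of each gene left out, 11 *Chrna3* and 4 *Chrna5* counts remained. The cell highest in *Chrna3* was also the third highest in *Chrnb4*, with 68 counts, whereas the cell with 16 *Chrna5* counts had 2 of *Chrnb4* and 0 of *Chrna3*.

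**Figure D2:**
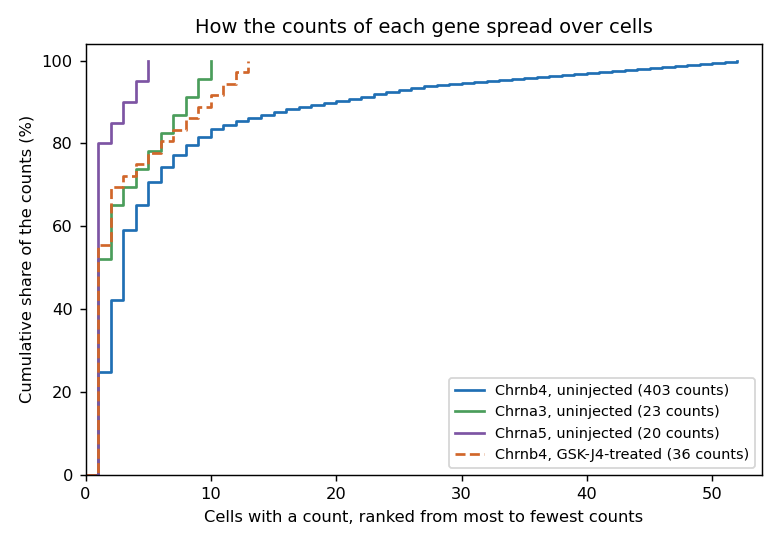
Cumulative share of the counts of a gene (vertical axis, %) over the cells with a count, ranked from most to fewest counts (horizontal axis), for the members in uninjected cells (solid lines) and *Chrnb4* in GSK-J4-treated cells (dashed line). The first cell gave 24.8% of the uninjected *Chrnb4* counts, 52.2% of *Chrna3* and 80.0% of *Chrna5*, and 55.6% of the GSK-J4-treated *Chrnb4* counts.

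By share of cells, *Chrnb4* was found in 63.4% (Clopper-Pearson 52.0 to 73.8%) of the cells without GSK-J4 and 20.3% (11.3 to 32.2%) of those with it. *Chrna3* was found in 12.2% (6.01 to 21.3%) of uninjected and *Chrna5* in 6.10% (2.01 to 13.7%), and for each the 0 of 64 GSK-J4-treated cells allows up to 5.60%. These shares followed depth. Uninjected cells with a *Chrnb4* count had a median of 10450.5 counts and those without it 2938, and GSK-J4-treated cells 3668 and 1981. Above the median depth of the uninjected cells *Chrnb4* was found in 35 of 41 cells (85.4%), and at or below it in 17 of 41 (41.5%). With each cell thinned to 867 counts, for which 1 uninjected cell and 14 treated cells were too shallow, the expected share was 14.3% without GSK-J4 and 9.35% with it, and that of *Chrna3* and *Chrna5* in uninjected cells was 1.45% and 0.727%.

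No cell type that should lack these genes was sorted beside these cells, so genes foreign to the retina served for comparison. *Chrna1*, the alpha subunit of the muscle receptor, was counted in 31.7% of the cells without GSK-J4 and 21.9% of those with it, and after thinning in 4.84% and 7.65%. Over 510 olfactory and vomeronasal receptor genes the median share was 2.44% and 3.12%, with a 95th percentile of 17.1% and 14.9%. The share of *Chrnb4* in uninjected cells lay above these medians and percentiles and above *Chrna1*, but single receptor genes reached 87.8% and 70.3%. In GSK-J4-treated cells its 20.3% lay above the 95th percentile of the receptor genes and beside the 21.9% of *Chrna1*, and after thinning its 9.35% stood beside 7.65%, so that the comparisons do not place it on one side of background. The shares of *Chrna3* and *Chrna5* in uninjected cells lay under the 95th percentile of the receptor genes and are not read as expression above background.

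All 5 cells with a *Chrna5* count and 8 of the 10 with a *Chrna3* count also had a *Chrnb4* count, which is 9.62% and 15.4% of the 52 cells with *Chrnb4*. *Chrna3* and *Chrna5* met in no cell. Of the 82 uninjected cells, 28 had a count of no member, 41 of 1 member, 13 of 2 and 0 of all 3. Cells with a *Chrna3* or *Chrna5* count were deep, with medians of 17612.5 and 36992 counts against 7058.5 and 7874 in the cells without, and in deep cells any pair of genes is found together more often.

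The plate sides differed for the alpha subunits. Wells of columns 7 to 12 held 21 of the 23 *Chrna3* counts and 19 of the 20 *Chrna5* counts of the uninjected plate, each with its highest cell. *Chrna3* stood at 0.371 per 10000 (0.229 to 0.566) there and at 0.0366 (0.00443 to 0.132) in columns 1 to 6, while by cells the shares of 8 of 43 (8.39 to 33.4%) and 2 of 39 (0.627 to 17.3%) overlapped. *Chrnb4* was spread over both sides of that plate, at 4.02 per 10000 (3.52 to 4.58) in columns 7 to 12 and 3.20 (2.74 to 3.71) in columns 1 to 6, in 65.1% and 61.5% of the cells. On the GSK-J4-treated plate 30 of its 36 counts came from columns 7 to 12, which include the cell with 20. Within columns 1 to 6 the *Chrnb4* log-fold between the libraries was -0.60, and within columns 7 to 12 it was -0.091.

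Cone transcripts did not separate uninjected cells with *Chrnb4* from those without. The 52 cells with a count and the 30 without had medians of 1.95% and 1.85% of their counts on cone markers, and each cell of both had at least 5 of the 11 markers. In GSK-J4-treated cells, 9 of the 13 cells with a *Chrnb4* count had none of the markers and none had more than 1, beside 41 of 51 without any marker among the cells that lacked *Chrnb4*. At least 1 of 8 rod markers was counted in 51 of the 52 uninjected cells with *Chrnb4* and in 27 of the 30 without, and in 5 of 13 and 10 of 51 GSK-J4-treated cells.

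Transcripts of inner retinal neurons took a small share of the counts. Of the uninjected counts, 0.00296% fell on 7 starburst amacrine markers, with 0 to 0.0307% per cell, and 0.00844% on the 7 ganglion cell markers with a row, with 0 to 0.101% per cell. The GSK-J4-treated library had 0.00671% (0 to 0.238% per cell) and 0.0125% (0 to 0.163% per cell). *Slc5a7*, the choline transporter of cholinergic neurons, had 0 counts in the uninjected and 3 in the treated library, and *Chat*, which makes acetylcholine, had 6 and 0. *Isl1* had 11 and 6 and *Sox2* 6 and 4, while *Megf10* and *Fezf1* were at 0 in treated cells. Of 6 further amacrine markers and the 7 bipolar cell markers with a row, the pooled shares were 0.00476% and 0.0148% of uninjected and 0.0125% and 0.0144% of treated counts. Single genes of these lists went in both directions. *Pax6*, of amacrine and ganglion cells, was counted in 8.54% of uninjected and 17.2% of treated cells (log-fold 0.58), and *Trpm1*, the channel of ON bipolar cells, in 7.32% and 18.8% (0.68), beside 20.3% for *Chrnb4* in treated cells. *Scgn* of the bipolar list went the other way, in 26.8% of uninjected and 1.56% of treated cells (-0.66). So did *Grm6* of the same list, in 17.1% and 1.56% (-0.19). Beyond 0.3 log-fold, *Pax6* was the 1 higher of the amacrine markers and 0 were lower. Of the bipolar cell markers, *Trpm1* was the 1 higher and *Scgn* the 1 lower. These single genes were named after their values were seen. The 8 Müller glia markers took a larger share, 0.111% of uninjected counts (0 to 3.91% per cell) and 0.0316% of treated counts (0 to 0.650% per cell). Beyond 0.3 log-fold, 3 of these 8 were lower and 0 higher, beside 11.8% and 12.6% of all filtered genes. The part of other cells in the counts of the cluster was not tested.

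Of the 13 other nicotinic subunit genes, 12 had a row and 11 passed the filter. *Chrnb3*, an accessory beta subunit, was the 1 beyond 0.3 log-fold in the lower direction (-0.31), and *Chrna1* (0.48) and *Chrnd* (0.32), both subunits of the muscle receptor, were the 2 beyond it in the higher direction. This is 3 of 11 beside the 24.4% of all filtered genes, and the median of the 11 was 0.063. By summed counts in uninjected cells *Chrnb4* stood above every one of them, with no overlap of the counting intervals, and *Chrna1* came next with 65 (50.2 to 82.8) counts. *Chrnb3* with 32 (21.9 to 45.2), *Chrna6*, which pairs with it in dopaminergic and visual neurons, with 29 (19.4 to 41.6), *Chrna3* and *Chrna5* followed and did not differ from one another beyond counting error. *Chrnb3* and *Chrna6* each had 1 count (0.0253 to 5.57) in GSK-J4-treated cells, and the intervals of their ratios, treated over uninjected, were 0.00410 to 0.999 and 0.00451 to 1.11. Per kb of exon the uninjected levels were 0.972 per 10000 for *Chrnb4*, 0.133 for *Chrna1*, 0.0896 for *Chrna6* and 0.0451 for *Chrnb3*.

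Among the other subunits, *Chrna1* had 26 (17 to 38.1) counts there, 1.25 per 10000 against 0.584, a ratio of 2.14 (1.30 to 3.41). *Chrnd* had 0 and 15 (8.40 to 24.7) counts, 9 of the 15 in 1 cell. It was 26.7-fold higher against a floor of 3 counts in the uninjected library, and the counting interval of its ratio began at 19.1. *Chrna7*, which forms receptors of its own kind, had 17 (9.90 to 27.2) and 5 (1.62 to 11.7) counts, and *Chrne* of the adult muscle receptor 17 and 3. *Chrna2* had 13 and 0 counts and *Chrnb1*, the beta subunit in muscle, 10 and 4. The remaining *Chrna4*, *Chrna10*, *Chrnb2* and *Chrng* had at most 9 counts in either library, and *Chrna10* and *Chrnb2* share exon bases with *Art1* and *Adar* on the other strand. *Chrna9* was not analysed here. In the GSK-J4-treated library the intervals of *Chrnb4* and *Chrna1* overlapped, so that *Chrnb4* no longer stood apart.

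**Figure D3:**
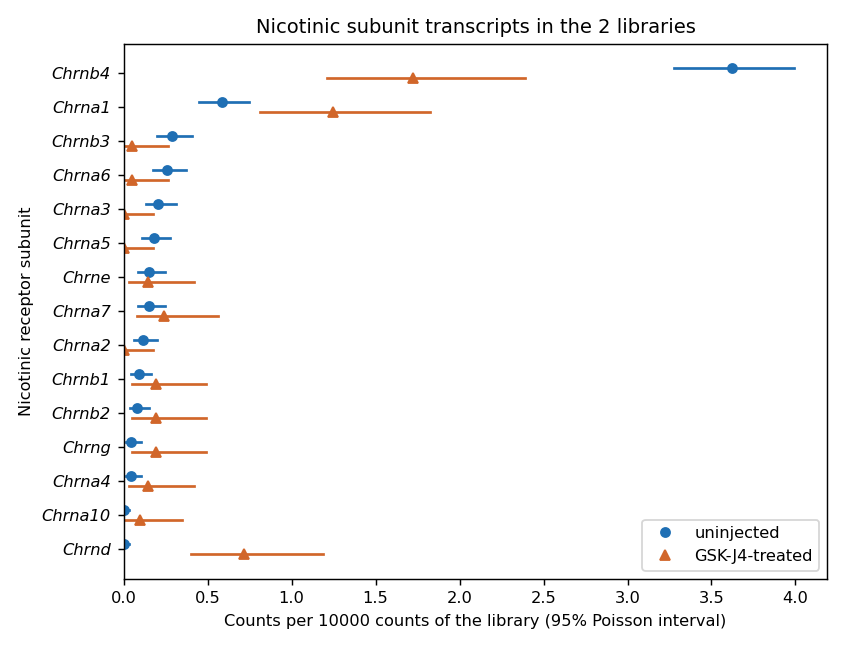
Level of each nicotinic receptor subunit with a row in the counts (horizontal axis, counts per 10000 counts of the library, with 95% Poisson intervals) in uninjected (circles) and GSK-J4-treated cells (triangles). *Chrnb4* was at 3.62 and 1.73, while *Chrna1* was at 0.584 and 1.25 and *Chrna3* and *Chrna5* were at 0 in GSK-J4-treated cells.

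Among 12 chaperones and Ly6 family modulators of nicotinic receptors, 11 had a row and 10 passed the filter, of which 1 was lower and 2 were higher beyond 0.3 log-fold, near the 11.8% and 12.6% of all filtered genes. *Lynx1*, a membrane-anchored protein that dampens nicotinic receptors, was the lower one. It had 196 (170 to 225) counts in 62.2% of uninjected cells, about as widely found as *Chrnb4*, and 1 count (0.0253 to 5.57) in GSK-J4-treated cells, with a log-fold of -1.26 and a ratio of 0.0272 (0.000686 to 0.154). Of its uninjected counts, 101 came from 1 cell. *Ric3*, a chaperone of receptor assembly, had 61 (46.7 to 78.4) and 2 (0.242 to 7.22) counts with a log-fold of -0.10, whereas by library totals its ratio was 0.175 (0.0207 to 0.660). *Lypd6* had 17 and 9 counts (0.33), *Rapsn*, which clusters the muscle receptor, 24 and 8 (-0.0070), and *Ubqln1* 15 and 3 (0.14). *Lypd1* was the other higher gene, with 7 counts in each library (0.36).

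Of the genes that make, move or break down acetylcholine, 6 of 8 had a row, 4 passed the filter and none lay beyond 0.3 log-fold. For *Ache*, which cleaves acetylcholine, 57 (43.2 to 73.9) and 28 (18.6 to 40.5) were counted (0.26), and *Slc44a1*, a choline carrier of most cells, had 106 (86.8 to 128) and 9 (4.12 to 17.1) and -0.083. Of 5 muscarinic receptors 3 had a row, with at most 8 counts in either library, and *Chrm1* was higher by 0.49. Of 6 factors known to act at the *Chrnb4* promoter, 5 had a row. *Hnrnpk*, with 154 (131 to 180) and 12 (6.20 to 21.0) counts, was the 1 of these beyond 0.3 log-fold (-0.35). Of all filtered genes 24.4% lay beyond this limit, and these short lists cannot be set apart from that share. *Sp1*, *Sp3* and *Jun* had at most 6 counts each, too few to compare.

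The neighbours of the cluster were sparse as well. *Ireb2*, an iron-sensing RNA-binding protein 68.3 kb away, had a log-fold of 0.0078 from 26 (17 to 38.1) and 3 (0.619 to 8.77) counts. *Hykk*, 31.0 kb away, had 3 and 4 counts, and *Crabp1*, 208 kb away, 4 and 0. *Psma4* was not analysed here. *Adamts7*, *Morf4l1*, *Ctsh* and *Rasgrf1* had been listed as neighbours but lie 34.9 to 35.1 Mb away on chromosome 9 in GRCm38. Among these, *Adamts7* had 272 (241 to 306) and 46 (33.7 to 61.4) counts with a log-fold of -0.026, *Ctsh* 39 and 12 (0.13), *Rasgrf1* 13 and 11 (0.33) and *Morf4l1* 12 and 1 (-0.048).

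Across the 82 uninjected cells, the scaled counts of *Chrnb4* were most like those of *Gckr* (Spearman's rho 0.49), *Rpl21* (0.49) and *Rnh1* (0.48) out of 6783 genes found in at least 10% of these cells. Those of *Chrna3* were most like *Ruvbl1* (0.59), *Chac2* (0.56) and *Cmip* (0.50), which had counts in 9, 15 and 14 cells. *Chrnb4* and *Chrna3* had a rho of 0.080 with each other. Across the 64 GSK-J4-treated cells *Chrnb4* was most like *1700028D13Rik* (0.45), *Gpr45* (0.44) and *Ctnna1* (0.44). The points are cells of 1 library and share their depth, with which *Chrnb4* itself had a rho of 0.34 without GSK-J4 and 0.27 with it. These values describe sparse counts and carry no test.

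The size of the *Chrnb4* log-fold changed with the cells kept and with their weighting. Over 11 alternatives it ran from -0.92 with median-ratio size factors to 0.44 in a single random thinning of each cell to 867 counts, and 5 of them lay beyond 0.3 in the lower direction. The thinning left out 1 uninjected cell and 14 treated cells that were shallower, and these 14 held 0 *Chrnb4* counts. At full depth the remaining cells had means of 2.74 and 2.38 per 10000 and a log-fold of -0.098. A further 100 thinning draws, added after the first was seen, had a median of -0.10, close to that value, with a 5th to 95th percentile range of -0.50 to 0.28, and 36 of them lay above 0. Thinning thus left the centre where the choice of cells had put it, and the spread of single draws reached both sides of 0 because few counts remained. At least 500 genes per cell gave -0.096 for *Chrnb4* and -0.17 for the summed cluster, in place of -0.29 and -0.36. *Chrna3* and *Chrna5*, with no count in treated cells, could not lie above 0 in any setting.

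**Figure D4:**
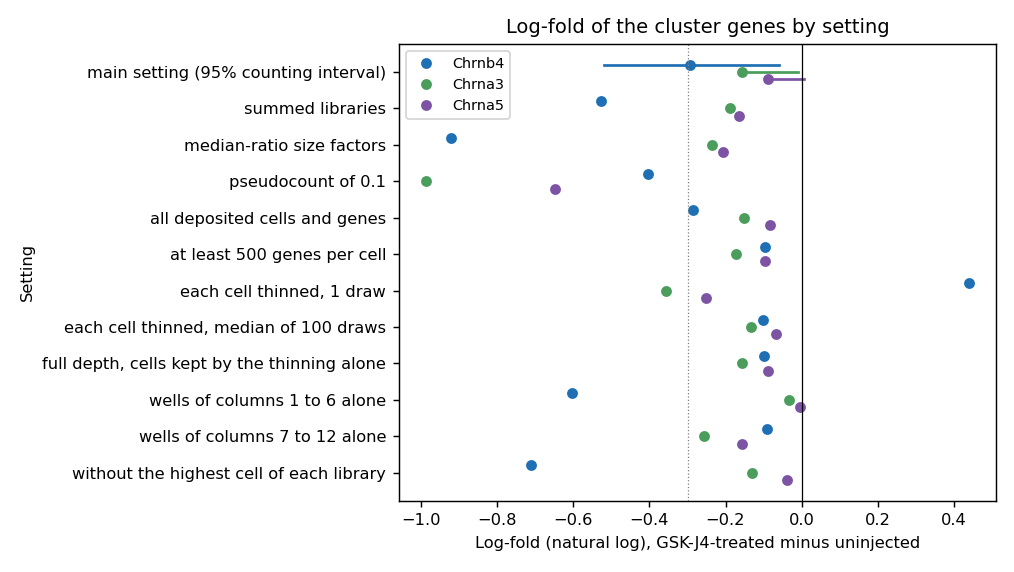
Log-fold of *Chrnb4*, *Chrna3* and *Chrna5* (horizontal axis, natural log, GSK-J4-treated minus uninjected) under the main setting and under each alternative (vertical axis). The line at the main setting is the 95% counting interval of the ratio of library sums, moved onto the log-fold. The solid line marks 0 and the dotted line -0.3, and *Chrnb4* ran from -0.92 to 0.44, on both sides of each line.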

How the data were processed

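Single GFP-positive retinal cells were sorted into wells and their RNA was sequenced, in 1 uninjected and 1 GSK-J4-treated library. The deposited tables hold counts, not normalized, with genes in rows and cells in columns. The authors aligned reads with the CLC Genomics Workbench, removed PCR duplicates by UMI and position, counted with featureCounts and summed 3' and 5' counts. The labels and the methods name the build GRCh38, a human number, so coordinates here are those of GENCODE vM21. Cells of the treated plate carry adult in their names, whereas the label gives P24.

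Genes counted in under 3 cells, and cells with under 200 genes or over 5% mitochondrial counts, were removed. Counts were scaled to 10000 per cell (Python 3.11.15, pandas 2.3.3, numpy 2.4.6, scipy 1.17.1). With 1 library per condition no test was run. No doublet caller and no batch correction were used. The calculation was tested on simulated counts of 15947 genes, where 200 of 200 changed genes had the right direction, with a median absolute error of 0.0795. The changed genes were drawn from those with at least 1 count per 10000 in the uninjected library, and cells differed by depth and counting error only. *Chrna3* (0.207) and *Chrna5* (0.180) lie below that level, and the uneven spread of *Chrnb4* over cells was not simulated. The test therefore does not cover the members as they were found. Named genes were the 3 members, listed genes with at least 10 counts in either library, and the 3 genes most like each member; others are named where a count is small. One listed gene is not reported here. The members and lists were chosen with earlier results of these data known. Splits by plate side and depth, the removal of the highest cells, the shares held by few cells, the comparison with receptor genes foreign to the retina, the 100 thinning draws and the cells kept by the thinning at full depth were added after values were seen.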

Additional observations from a re-analysis of the deposited data

How the results depend on the processing

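Of 92 alternative values, 56 stayed within the interval of the reported value (for the number of genes, within 1.5 times) and the others moved beyond it. For log-folds this is the interval moved from the ratio of the library sums. Of 44 alternative log-folds, 42 were below 0. Those of *Chrna3* and *Chrna5*, with no count in treated cells, could not lie above 0, and those of the summed cluster mostly repeat *Chrnb4*. The tally is therefore no measure of how stable the direction was. The other 2 changed direction to lie above 0. Both came from the single thinning of each cell to 867 counts, planned as such, which gave 0.44 for *Chrnb4* and 0.18 for the summed cluster, and -0.36 for *Chrna3* and -0.25 for *Chrna5*. Because this draw lay far from the expected shares, 100 more were added after it was seen, and the summed cluster then had a median of -0.19 (5th to 95th percentile -0.59 to 0.21), with 25 draws above 0. None of the 100 gave *Chrnb4* a log-fold as high as the first. The cells that thinning keeps gave, at full depth, -0.098 for *Chrnb4*, -0.16 for *Chrna3*, -0.088 for *Chrna5* and -0.17 for the cluster. With summed libraries the log-folds were -0.53 for *Chrnb4*, -0.19 for *Chrna3*, -0.17 for *Chrna5* and -0.61 for the summed cluster. With median-ratio size factors they were -0.92, -0.23, -0.21 and -1.01 in this order, while the median of all genes was -0.021 in place of 0.033 and the split of genes beyond 0.3 log-fold moved from 1886 lower and 2008 higher to 2588 and 631. A pseudocount of 0.1 gave -0.99 for *Chrna3* and -0.65 for *Chrna5*, and 11543 genes beyond 0.3 log-fold in place of 3894. At least 500 genes per cell gave -0.17 and -0.097 for these members, -0.096 for *Chrnb4* and -0.17 for the cluster. Among the settings chosen after the values were seen, columns 1 to 6 gave -0.60 for *Chrnb4* and -0.62 for the cluster, columns 7 to 12 gave -0.26 for *Chrna3*, -0.16 for *Chrna5*, -0.091 for *Chrnb4* and -0.19 for the cluster, and leaving out the highest cells gave -0.71 for *Chrnb4* and -0.79 for the cluster. In the single thinning the share of cells was 6.17% for *Chrnb4*, 3.70% for *Chrna3* and 12.3% for any member in uninjected cells, and 10% for *Chrnb4* and for any member in GSK-J4-treated cells. Over the 100 draws the medians were 13.6%, 1.23% and 16.05%, with 0.617% for *Chrna5*, and 9% for both in GSK-J4-treated cells, since fewer counts per cell give fewer cells with a count. Other causes were not tested. No paired analysis was possible because there was 1 library per condition. The GSK-J4-treated library held 208578 counts against 1113424, which limits what an absence of *Chrna3* and *Chrna5* can show.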
